A study of Mus musculus with 4 samples.

Results

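Mature dendritic cells that carry LAMP3 were examined among human immune cells sorted from xenografted tumors. Members were chosen by their UMI counts (a UMI is a molecular tag that marks 1 captured mRNA). A member had at least 2 LAMP3 UMIs and at least 3 UMIs of CCR7, FSCN1, CCL19 and CCL22 together. It also had at most 1 UMI of the T cell genes CD3D, CD3G and TRAC, and at most 3 UMIs of the macrophage genes C1QA and C1QB. The rule kept barcodes with more than 600 and at most 6000 detected genes and with fewer than 1 in 8 UMIs from mitochondrial genes. It found 118 members among 37806 kept barcodes of 42702, with 43 of 27645 in reaction 1 and 75 of 10161 in reaction 2.

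The cells came from 14 MISTRG mice, immunodeficient animals in which human cytokine genes (M-CSF, GM-CSF and IL-3) let grafted human blood progenitors form myeloid cells. The mice had been irradiated as pups and engrafted with human fetal CD34+ hematopoietic progenitors, and all carried tumors of MDA-MB-231, an established human breast carcinoma line, in the mammary fat pad. Maraviroc, a small-molecule drug, was given to 7 mice at 300 mg/l in the drinking water for 10 days from day 21, and 7 mice were untreated. All tumors were taken at day 31, and live human CD45+ cells were captured in 2 droplet reactions with 7 hashtag antibodies each, 1 per mouse. Reaction 1 held 4 untreated and 3 maraviroc mice, and reaction 2 held 3 untreated and 4 maraviroc mice. The human cells were thus the graft and the tumor line in a mouse host, and tumors were the only tissue sampled.

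The reactions differed in depth before any comparison was made. Reaction 1 held 133089612 UMIs with a median of 2752 per kept barcode, and reaction 2 held 175447534 UMIs with a median of 10742. A barcode was assigned to a mouse where its top hashtag held at least 60% of its hashtag UMIs, which 26.6% of kept barcodes met in reaction 1 and 88.2% in reaction 2. Members had medians of 6925 and 14865 UMIs, and 28 and 74 of them could be assigned to a mouse. Of the barcodes, 136 occurred in both reactions, and no barcode was a member in both.

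Dendritic cells take up antigen in tissue, and on activation they leave that state for a mature one. Maturing cells gain the chemokine receptor CCR7, which guides them to lymph nodes along CCL19 and CCL21, and they raise costimulatory ligands that prime T cells. In tumors, mature cells of this kind are known to carry LAMP3, a lysosomal membrane protein, together with ligands that restrain T cells, among them PD-L1, and they can arise from both conventional lineages, cDC1 and cDC2.

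The genes of the rule are given first, as a description of what was selected. Levels are CPM, the UMIs of a gene per 1000000 UMIs of all cells in a gate, with the reaction 1 value before the reaction 2 value. LAMP3 stood at 649 CPM (95% exact Poisson interval 574 to 730) and 791 (741 to 844). CCL19, the chemokine ligand of CCR7, was the most abundant at 2107 (1971 to 2250) and 2397 (2309 to 2488). Intervals of this kind cover counting error only. CCR7 stood at 855 and 818, FSCN1, the actin-bundling protein fascin, at 947 and 1087, and CCL22, a chemokine that binds CCR4, at 137 and 208. Across the 9 mice with at least 5 members, LAMP3 ranged from 401 over a median of 776 to 1008 CPM, CCL19 from 412 over 2042 to 4826, and CCR7 from 157 over 870 to 1074.

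Most members lay well inside the limits in reaction 2 and nearer to them in reaction 1. The median member had 4 LAMP3 UMIs and 21 UMIs of the companion genes in reaction 1, and 11 and 57 in reaction 2. Just inside the limit, 10 and 4 members had 2 LAMP3 UMIs, and just outside it 27 and 7 barcodes had 1 LAMP3 UMI and met the other limits. The C1Q limit alone left out 28 and 19 barcodes, and these had medians of 3 and 10 LAMP3 UMIs. The T cell limit alone left out 7 and 10. Any LAMP3 UMI was seen in 883 and 783 kept barcodes.

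For comparison, other cells were set apart by small gates that required 0 LAMP3 UMIs, so LAMP3 was absent from them by construction. The cDC1 gate (at least 2 UMIs of CLEC9A and XCR1) held 24 and 38 cells, and the cDC2 gate (at least 3 UMIs of CD1C, FCER1A and CLEC10A) held 134 and 238. The cDC2 gate also carried monocyte genes, with S100A9 at 2716 and 3184 CPM and VCAN at 1913 and 2061, so it was not a pure cDC2 population. Where a gate held no UMI of a gene, a count of 0, taken to allow up to 3 counts, allowed up to 16.0 and 4.57 CPM in the cDC1 gate and up to 2.14 and 0.832 CPM in the cDC2 gate. No member fell into any other gate.

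Marker genes of other lineages were also found in members, with monocyte, macrophage, NK and mast cell signal heavier in reaction 1. Over all members there, the monocyte gene S100A9 and the macrophage gene SPP1 each stood above LAMP3, which was at 649 CPM. In 1 member each were 138 of the 366 S100A9 UMIs and 174 of the 387 SPP1 UMIs. In untreated mouse 3, maraviroc mouse 1 and maraviroc mouse 3 of reaction 1, SPP1 was at 192, 288 and 188 CPM. LAMP3 was higher in each, at 503, 401 and 653, and S100A9 was at 2043, 10.3 and 531. The summed level of 7 monocyte markers was 1669 CPM in reaction 1 and 367 in reaction 2, with S100A9 the most abundant at 867 and 115, and 89 of its 133 UMIs in reaction 2 in 1 member. The 9 macrophage markers summed to 1241 and 180, of which SPP1 made up 916 and 85, against 15782 and 10211 CPM of SPP1 in the macrophage gate itself. The 7 NK markers summed to 717 and 110, with GNLY at 573 and 83, and 154 of 242 and 86 of 96 GNLY UMIs in 1 member of each reaction. The 9 T cell markers summed to 163 and 122, with CD4 the most abundant at 73.4 and 85.7. The 6 B cell markers summed to 33.1 and 46.7, and their defining gene CD79A was at 0 in both. The 8 markers of plasmacytoid dendritic cells (pDC) summed to 180 and 210, with SERPINF1 the most abundant at 94.7 and 85.7. The 5 mast cell markers summed to 99.4 and 1.73, with 22 of 23 TPSAB1 UMIs and 13 of 13 CPA3 UMIs of reaction 1 each in 1 member. Keratin and other epithelial markers of the tumor line summed to 9.47 and 6.92 over 7 genes, with EPCAM at 0. The part of such signal in the levels below was not tested.

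Beyond the rule, members were set against both conventional dendritic cell gates as a description without a test, because the members were chosen from the same cells. Of 9140 genes at 10 CPM or more in members or in a conventional gate in both reactions, 546 (5.97%) stood at least 2-fold above both gates in both reactions, and 389 (4.26%) at least 2-fold below both. Across all of these genes the median log2 ratio over the higher gate was −0.83. The gene furthest above was WNT5B, a secreted Wnt ligand, at 845 and 1583 CPM in members against at most 2.14 in either gate. TFPI2, a secreted inhibitor of serine proteases, stood at 459 and 434 against at most 0.714. TUBB2B, a beta-tubulin, stood at 253 and 229 and LAD1, an anchoring filament protein, at 125 and 139, with no UMI of either in the 2 gates. Other leading genes were the heparan sulfate proteoglycan GPC5 (253 and 588), ANKRD33B (426 and 614), the metalloprotease ADAM12 (230 and 325), the transporter SLC22A23 (407 and 749), the sialyltransferase ST8SIA1 (71.0 and 224) and the sterol hydroxylase CYP7B1 (201 and 106), of which 66 of 85 UMIs in reaction 1 were in 1 member. ANKRD33B was also found in the B cell gate at 126 and 198 CPM, and ADAM12 was at 38.8 and 103 in the T cell gate. WNT5B was present in each of the 9 mice, from 509 over a median of 1069 to 2222 CPM, whereas GPC5 ran from 0 in a maraviroc mouse of reaction 1 to 1112 in an untreated mouse of reaction 2.

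Molecules that restrain T cells were prominent. Of 16 regulatory genes at this level, 9 stood at least 2-fold above both gates in both reactions and 1 below, against 5.97% and 4.26% of all genes. The list counts below are to be read beside the same shares. The lists were chosen with earlier results of these data known, so the counts are a description. CD274, which encodes PD-L1, stood at 182 CPM (144 to 228) and 402 (367 to 441), against at most 28.3 in the gates. PDCD1LG2, which encodes PD-L2, stood at 116 (85.8 to 153) and 303 (272 to 336), against at most 11.4. Both ligands were higher in members than in the pooled conventional gates of the same mouse in 9 of 9 mice. CD274 in those mice was 118, 373 and 262 CPM in the untreated ones and 216, 44.3, 366, 274, 669 and 443 in the maraviroc ones, so that the 2 treatments overlapped and the lowest value was a maraviroc mouse of reaction 1.

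The tryptophan-degrading enzymes differed in how far they set members apart. IDO2 stood at 87.6 and 172 CPM against at most 36.6 in the gates. IDO1 was abundant at 743 and 716 but was also high in the cDC1 gate, at 378 and 463, and did not reach a 2-fold difference in either reaction. IL4I1, an amino acid oxidase that also acts on tryptophan, stood at 594 and 273 against 26.6 and 105 in the cDC1 gate and 125 and 114 in the cDC2 gate. Its reaction 1 level came largely from 1 maraviroc mouse at 2120 CPM and 1 member with 128 of 251 UMIs, while the median of the 9 mice was 259. CD200, a ligand that dampens myeloid cells, stood at 71.0 and 170, and EBI3, a subunit of IL-27 and IL-35, at 47.4 and 158. SOCS1 and SOCS2, feedback inhibitors of cytokine signaling, stood at 92.3 and 221 and at 87.6 and 152. The regulatory gene below both gates was ALDH1A2, the enzyme that makes retinoic acid, at 2.37 and 7.79 CPM against 22.9 or more. IL10 was at 2.37 and 0, the latter allowing up to 2.60 CPM.

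Of 10 costimulatory genes at level, 4 stood at least 2-fold above both gates, namely CD83, CD70, TNFSF9 and SLAMF1. CD83, the classical maturation marker, stood at 1901 and 1982 against at most 774, and CD70, the ligand of CD27, at 49.7 and 37.2 against at most 5.32. The B7 ligands CD80 (291 and 544) and CD86 (661 and 1032) were above both gates in each reaction, but CD86 stood against 527 and 612 in the cDC2 gate. CD40 stood at 189 and 150 against at most 94.1. TNFRSF9, the receptor 4-1BB better known on T cells, was at 78.1 and 107 in members and at 112 and 135 in the T cell gate, with at most 6.10 in the conventional gates.

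Among 13 chemokines at level, 3 stood at least 2-fold above both gates, namely CCL17, CXCL9 and CXCL13. CCL17, a further ligand of CCR4, stood at 187 (148 to 233) and 1208 (1146 to 1273) against at most 1.43. CXCL9, a ligand of CXCR3 on effector T cells, stood at 1006 and 530 against at most 197. Inflammatory chemokines were low, with CCL2 at 82.9 and 7.79, CXCL8 at 121 and 51.9, and CCL3 at 137 and 10.4 CPM. In 1 member each were 41 of the 79 CCL17 UMIs and 173 of the 425 CXCL9 UMIs of reaction 1, and 33 of the 60 CXCL8 UMIs of reaction 2. The receptor for CCL17 and CCL22, CCR4, was found almost only in the T cell gate, at 13.4 and 22.1 CPM. CXCL9 varied widely, from 65.5 over a median of 421 to 1307 CPM across the 9 mice, with reaction 2 mice at both low and high values.

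Of 13 migration and cytoskeleton genes at level, 4 stood at least 2-fold above both gates. MARCKS and MARCKSL1, regulators of the cortical actin skeleton, stood at 1087 and 751 and at 1132 and 804. CCR6 stood at 80.5 and 56.3 and S1PR1, the receptor for egress into lymph, at 33.1 and 55.4, both at least 2-fold above both gates. CCR2 and CX3CR1 stayed under 5 CPM.

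**Figure D1:**
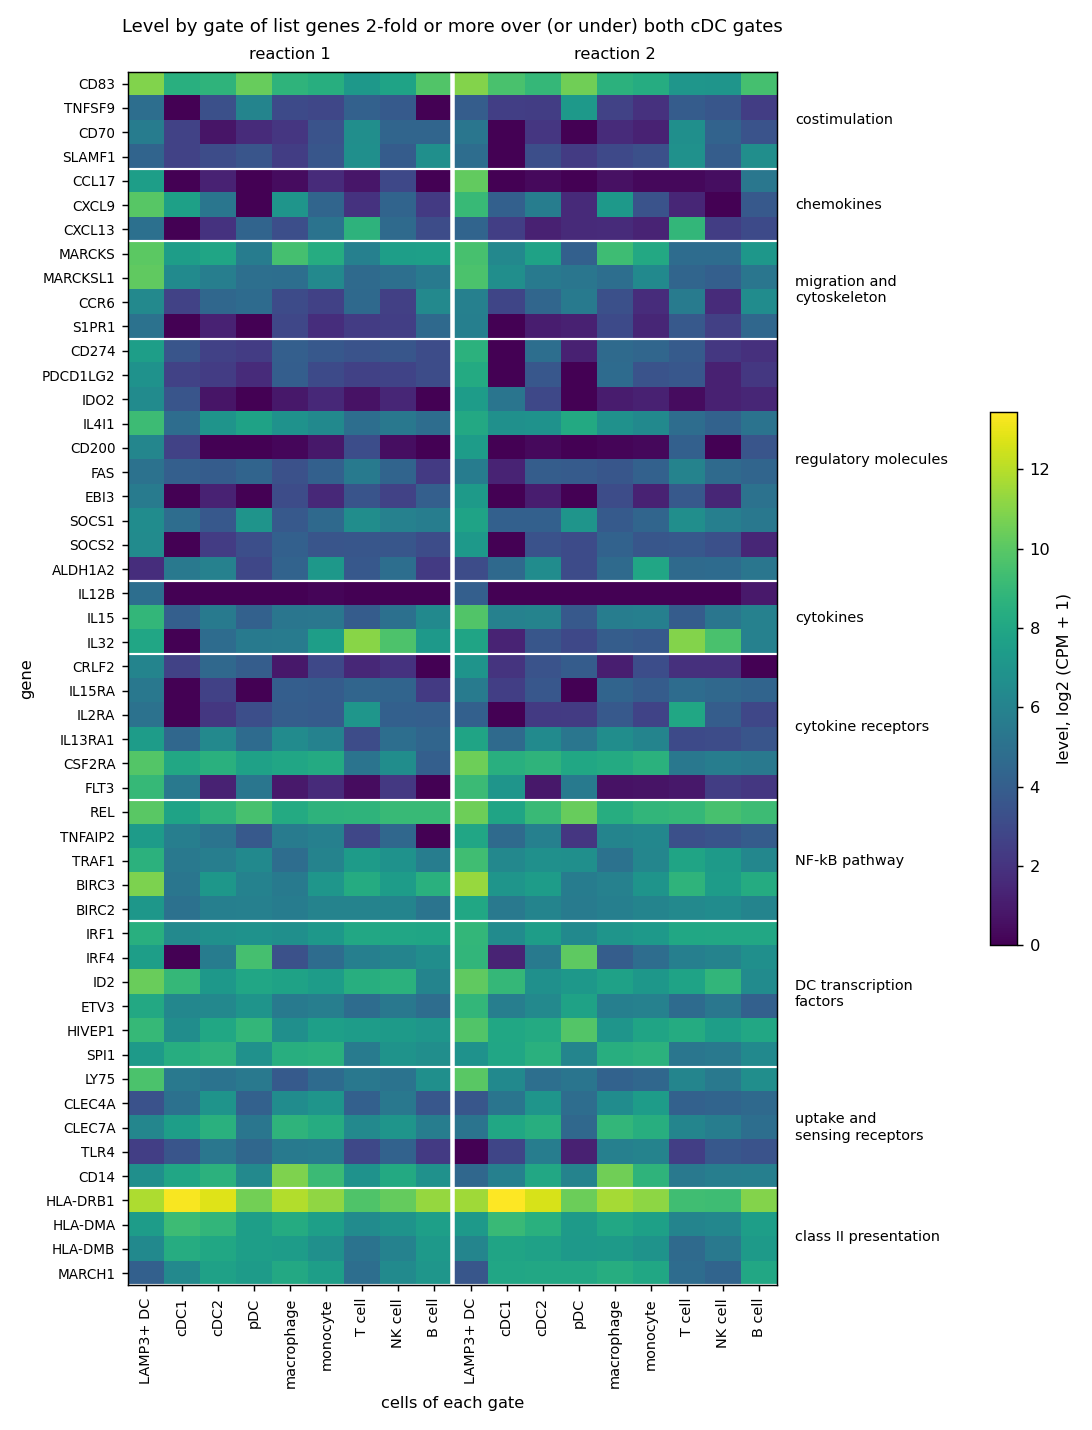
Level (color, log2 of CPM plus 1) of the list genes at least 2-fold above or below both conventional gates, in LAMP3+ dendritic cells and in each other gate, by reaction. CCL17, CD274 and IL15 are high in members and low in the cDC1 and cDC2 gates, whereas HLA-DRB1 (3542 and 3004 CPM in members) is lower than in both.

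Of 8 cytokine genes at level, 3 stood at least 2-fold above both gates, namely IL15, IL32 and IL12B, and the median log2 ratio over the higher gate was −1.65. IL32 stood at 249 and 233 CPM. IL15, which sustains NK and memory T cells, stood at 474 (410 to 544) and 878 (824 to 933) against at most 63.5, and was higher in members in 9 of 9 mice. Its presenting receptor chain IL15RA stood at 40.3 and 47.6 against at most 11.7. IL12B, which encodes the p40 subunit of IL-12 and IL-23, was low at 28.4 (14.7 to 49.6) and 15.6 (9.23 to 24.6), with no UMI in either conventional gate. It was detected in 5 of the 9 mice, all of them treated with maraviroc, at up to 55.3 CPM, and the 4 mice at 0 were the 3 untreated mice and 1 maraviroc mouse. The members held 12 and 18 IL12B UMIs in all, and this split was not tested. A count of 0 in the 3 untreated mice allowed up to 44.4, 22.4 and 39.3 CPM, each above the level over all members of its reaction. IL12A was at 0 and 0.865 CPM, whereas IL1B stood at 223 and 95.2, against 728 and 1001 in the cDC2 gate. In reaction 2, 92 of the 110 IL1B UMIs were in 1 member, and IL1B was at 0 in 5 of the 9 mice.

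Several receptors for growth factors were high. FLT3, the receptor for the ligand that sustains dendritic cells, stood at 509 (443 to 582) and 567 (524 to 612) against 42.6 and 128 in the cDC1 gate and at most 1.43 in the cDC2 gate. CSF2RA, the GM-CSF receptor chain, stood at 923 and 1418 against at most 435, and CRLF2, the TSLP receptor chain, at 66.3 and 122 against at most 22.1. Of 13 cytokine receptors at level, 6 stood at least 2-fold above both gates. By contrast the M-CSF receptor CSF1R stood at 42.6 and 9.52 against 231 and 199 in the cDC2 gate.

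The NF-kB pathway and its survival targets followed the same course for 5 of 15 genes. BIRC3, an apoptosis inhibitor induced by NF-kB, stood at 1769 (1644 to 1900) and 2709 (2615 to 2805) against at most 171, and ranged from 1273 to 3235 CPM over the 9 mice. TRAF1 stood at 400 and 642 against at most 105, and the subunit REL at 1023 and 1450 against at most 546. RELB, which drives dendritic cell maturation, stood at 282 and 389 against at most 144, just short of 2-fold in reaction 1. Among 16 transcription factors at level, 5 stood above both gates and 1 below. IRF4 stood at 185 and 463 and IRF1 at 355 and 479, while ID2, which is needed for cDC1, stood at 1352 and 1170 against 490 and 497 in the cDC1 gate. SPI1, the myeloid regulator PU.1, stood at 159 and 116 against 244 or more. IRF8 lay between the lineages at 156 and 214, against 687 and 837 in the cDC1 gate and 47.9 and 80.2 in the cDC2 gate.

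Some class II genes and uptake receptors were lower in members than in both gates. HLA-DRB1 stood at 3542 and 3004 CPM against 10344 and 11218 in the cDC1 gate and 7170 and 6281 in the cDC2 gate. Of 13 class II genes, none stood 2-fold above and 4 stood 2-fold below both gates, which were HLA-DRB1, the peptide editor HLA-DMA, its partner HLA-DMB and MARCH1, against 4.26% of all genes. The other 9 passed in neither direction. MARCH1, the ubiquitin ligase that removes class II from the surface, stood at 16.6 and 11.3 against 79.9 or more. HLA-DRA was lower in members than in the pooled conventional gates in 9 of 9 mice, from 2690 over a median of 4132 to 7539 CPM. HLA-DQA1 went the other way and was higher in members in 8 of 9 mice, at 859 and 815 CPM over each reaction, against 1831 and 2270 in the cDC1 gate and 377 and 408 in the cDC2 gate. CIITA, the class II transactivator, did not follow, at 173 and 350 against 202 and 191 in the cDC1 gate. No class I gene of 12 passed 2-fold in either direction, and B2M stood at 10004 and 8999 against 6767 and 7348 in the cDC1 gate. Of 14 uptake and sensing receptors, 4 stood below both gates, among them the lectin CLEC7A and TLR4. LY75, the endocytic receptor DEC-205, was the exception at 796 and 1015 against at most 82.3.

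Several programs did not set members apart. Of 16 interferon response genes, GBP4 alone stood above both gates, at 75.8 and 112 CPM, and ISG15 was at 696 and 247 against 768 and 784 in the cDC2 gate. None of 8 cell cycle genes at level differed by 2-fold from both gates, and MKI67, a proliferation marker, was at 21.3 and 1.73 CPM against 112 and 53.4 in the cDC1 gate. Of the 9 lipid and stress genes that the study followed in macrophages, none did either, with PLIN2, a lipid droplet coat protein, at 104 and 23.4 and CD36, a fatty acid importer, at 90 and 53.7. CD36 rested on few members, with 23 of 38 and 56 of 62 UMIs in 1 member of each reaction, and was at 0 in 5 of the 9 mice.

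Members were not uniform in the lineage genes they kept. At least 1 UMI of the cDC1 genes CLEC9A, XCR1, CADM1, CLNK or WDFY4 and none of the cDC2 genes CD1C, FCER1A, CLEC10A or CD1E was seen in 21 of 43 and 37 of 75 members. The reverse was seen in 2 and 5 members, both kinds in 3 and 14, and neither in 17 and 19. A WDFY4 UMI was not found in cDC1 alone, since it was seen in 51.2% and 66.7% of members, 44.8% and 61.8% of the cDC2 gate and 66.7% and 97.4% of the cDC1 gate. With WDFY4 left out, chosen after the data were seen, cDC1 genes alone were seen in 12 and 16 members, cDC2 genes alone in 4 and 17, both in 1 and 2 and neither in 26 and 40. In the cDC2 gate 8 of 134 and 8 of 238 cells then had a cDC1 gene, against 13 of 43 and 18 of 75 members. Members with neither kind when WDFY4 was counted were shallower, with medians of 4066 and 11891 UMIs, so an absent UMI was weaker evidence there. Across members, WDFY4, which cDC1 use for cross-presentation, stood at 381 and 286 CPM, between 900 and 1614 in the cDC1 gate and 71.4 and 82.1 in the cDC2 gate. CLEC9A stood at 35.5 and 3.46 CPM, with all 15 UMIs of reaction 1 in 1 of 43 members, and XCR1 at 11.8 and 0.865. CD1E, a lipid-presenting cDC2 gene, stood at 9.47 and 63.2 in members, the former from 4 UMIs, and at 13.6 and 10.8 in the cDC2 gate, while CD1C stood at 18.9 and 32.0 against 446 and 228, with 7 of 8 and 23 of 37 UMIs in 1 member of each reaction.

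CCL17 marked off a portion of the members. It was seen in 13 of 43 members (30.2%) and 39 of 75 (52%), against 0.582% and 0.380% of the NK gate, which should lack it and had median depths of 2185 and 7670 UMIs. With each cell thinned to 3000 UMIs the shares in members were 20% and 40.5%, after 8 and 1 shallower members were left out. In reaction 2, where depth was higher, members with CCL17 had WDFY4 at 88.9 CPM against 489 in members without it, CADM1, a cDC1 adhesion molecule, at 1.71 against 116, and IRF8 at 70.1 against 361. In the same cells PDCD1LG2 stood at 419 against 184, CD274 at 499 against 303 and CCL22 at 313 against 99.9. IDO1 went the other way, at 388 against 1052, as did CXCL9 at 376 against 689.

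Reaction 1 gave the same direction for most of these genes. Members with CCL17 there had WDFY4 at 213 against 435, CADM1 at 0 against 78.3, PDCD1LG2 at 330 against 47.0 and IDO1 at 485 against 827. FLT3 did not keep its direction, at 766 against 426 in reaction 1 and 323 against 817 in reaction 2. Nor did CCR7, at 931 against 830 and 608 against 1033, or IL12B, at 38.8 against 25.1 and 3.42 against 28.1. CXCL10, BATF3 and EBI3 also changed direction. Members with CCL17 were shallower in reaction 1, with a median of 4629 UMIs against 8280.5 in members without it. CADM1 and CCL17 were seen in the same member in 0 cells of reaction 1 and 1 of reaction 2, although 9 and 13 members had CADM1. The Spearman coefficient between CCL17 and WDFY4 across members was −0.32 (43 cells) and −0.49 (75 cells), between CCL17 and PDCD1LG2 0.55 and 0.36, and between CXCL9 and CXCL10 0.52 and 0.59. Cells of a reaction share library and depth, so these coefficients are a description. CSTA, a cysteine protease inhibitor, and TMEM176B, both singled out after their values were seen, stood at 543 against 90.9 and 494 against 90.9 in reaction 1, and at 923 against 43.8 and 607 against 161 in reaction 2.

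**Figure D2:**
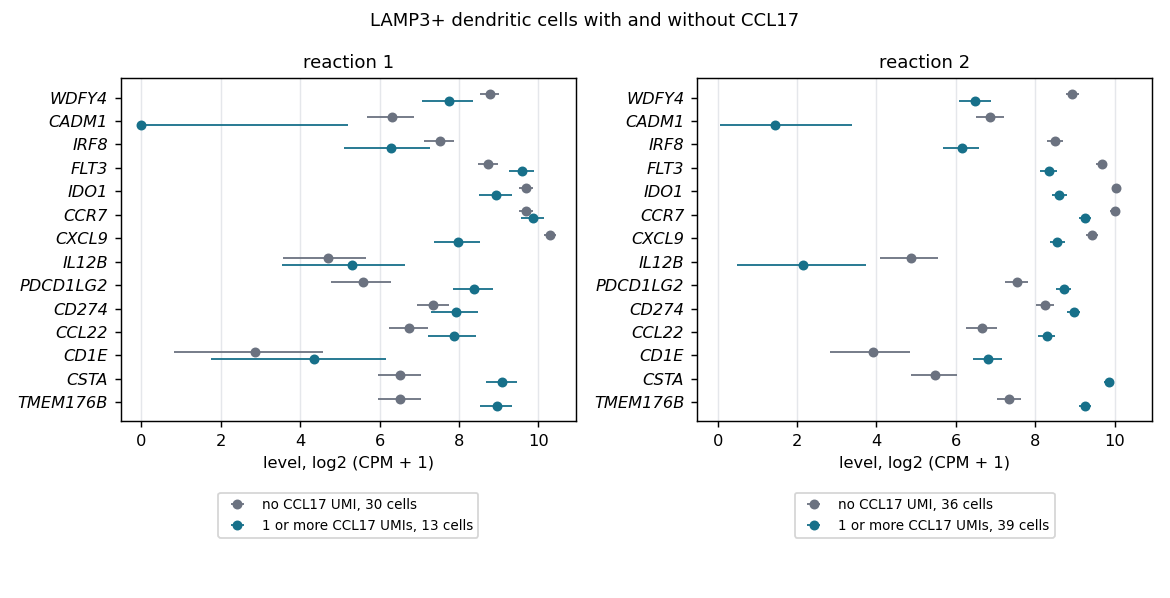
Level (log2 of CPM plus 1) of lineage, chemokine and regulatory genes in members with at least 1 and with no CCL17 UMI, by reaction, with 95% exact Poisson intervals as bars. WDFY4, CADM1 and IRF8 are lower and PDCD1LG2 is higher in members with CCL17 in both reactions.

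CCL17 also differed between mice. Its level was 44.4, 2922 and 903 CPM in the 3 untreated mice with at least 5 members. In the maraviroc mice it was 432 and 0 in reaction 1 and 700, 1347, 1153 and 836 in reaction 2. The highest value was thus an untreated mouse of reaction 2 and the lowest a maraviroc mouse of reaction 1, and the treatments overlapped.

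Whether maraviroc went along with a different number of these cells was asked next, with the mouse as the replicate. The rule did not use the treatment, so this comparison could be tested. Members were a larger share of the kept cells in maraviroc mice, at 0.848% ± 0.400 (SD, n = 7) against 0.345% ± 0.344 (SD, n = 7) in untreated mice. The difference of 0.503 percentage points, a ratio of 2.46, gave p = 0.0196 in a two-sided exact permutation test that exchanged treatments within reactions. Per mouse, the untreated shares were 0.236% (2 of 849 cells), 0.104% (1 of 959), 0.846% (8 of 946) and 0.0836% (1 of 1196) in reaction 1. In reaction 2 they were 0.796% (10 of 1257), 0.350% (5 of 1430) and 0 of 930, which allows a share of up to 0.323%. The maraviroc shares were 0.421% (5 of 1188), 0.154% (2 of 1302) and 0.977% (9 of 921) in reaction 1, and 1.18% (17 of 1444), 1.17% (16 of 1365), 1.07% (15 of 1399) and 0.964% (11 of 1141) in reaction 2. The exact Clopper-Pearson 95% intervals were wide, for example 0.137% to 0.979% for the first of these maraviroc mice and 0.687% to 1.88% for the first of reaction 2.

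The reactions did not carry the difference equally. In reaction 2 all 4 maraviroc mice lay above all 3 untreated mice, at 1.10% ± 0.101 against 0.382% ± 0.399, with p = 0.0286 in the exact permutation test, which is the smallest that 35 regroupings can give. In reaction 1 the groups overlapped, at 0.517% ± 0.420 (n = 3) against 0.317% ± 0.359 (n = 4), a difference of 0.200 points with an exact permutation p of 0.486. That reaction 1 difference moved with the assignment of barcodes, to 0.0543 points at a 40% hashtag limit, 0.0770 with HTODemux and 0.561 at an 80% limit. The difference between the reactions was itself 0.515 points, with an exact permutation p of 0.265. Leaving out each mouse in turn gave differences from 0.446 to 0.619 points, with exact permutation p from 0.00286 to 0.0486. The highest untreated share, in reaction 1, was near the maraviroc mean. Of the 7 untreated mice 2 exceeded 0.5%, and the maraviroc shares of 0.421% and 0.154% in reaction 1 lay below it.

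**Figure D3:**
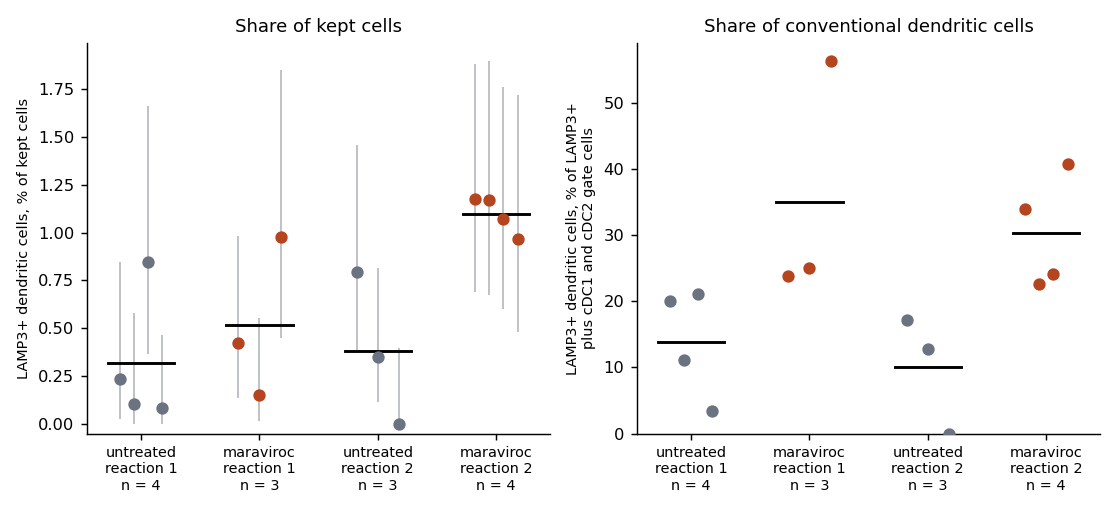
Each point is a mouse, with the share of kept cells that were LAMP3+ dendritic cells on the left (percent, grey lines 95% exact Clopper-Pearson intervals) and their share of conventional dendritic cells on the right (percent); black lines are group means. In reaction 2 the maraviroc mice sit between 0.964% and 1.18% of kept cells, above all untreated mice, while in reaction 1 the groups overlap on the left panel alone.

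Measured against other dendritic cells, members were also a larger share in maraviroc mice, in both reactions. Members made up 32.4% ± 12.48 (SD, n = 7) of members, cDC1 gate and cDC2 gate together in maraviroc mice, and 12.2% ± 8.08 (SD, n = 7) in untreated mice. The difference of 20.1 points, a ratio of 2.64, gave p = 0.000816, the smallest that the exact permutation test within reactions can give. In reaction 1 the untreated mice had 20%, 11.1%, 21.1% and 3.45% and the maraviroc mice 23.8%, 25% and 56.3%. In reaction 2 the untreated mice had 17.2%, 12.8% and 0%, and the maraviroc mice 34%, 22.5%, 24.2% and 40.7%. The treatments overlapped in neither reaction, each with an exact permutation p of 0.0286, and leaving out each mouse in turn gave differences from 16.1 to 21.8 points. Between 8 and 71 conventional dendritic cells per mouse stood behind these shares. The cDC2 gate, part of the denominator, held 0.945%, 0.731%, 3.20% and 2.34% of the other kept cells in untreated mice of reaction 1. In the maraviroc mice of reaction 1 it held 1.01%, 0.462% and 0.658%. In reaction 2 it held 3.61%, 2.11% and 1.51% in untreated mice and 1.96%, 3.71%, 2.96% and 0.885% in maraviroc mice. The part of the cDC2 gate in the difference was not tested. With HTODemux in place of the 60% hashtag limit, chosen after the data were seen, the difference fell to 13.5 points with an exact permutation p of 0.0457.

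The share of members was set against the shares of T cells, cDC1 and cDC2 among the other kept cells of the same mouse, which made 3 relations. Mice with more T cells had more members, with Pearson's r of 0.69 (permutation p = 0.00721, adjusted 0.0216) and Spearman's rho of 0.71 (permutation p = 0.00624, adjusted 0.0187) over 14 mice. T cell shares ran from 5.16% in the mouse without a member to 38.3%. Without the 2 mice farthest from the median T cell share, r was 0.70 (adjusted permutation p = 0.0391). With the top hashtag at 80% or more, r was 0.64 (adjusted permutation p = 0.0461) but rho was 0.59 and no longer passed (adjusted permutation p = 0.0894). Within reactions the relation was in the same direction but did not pass, with r of 0.49 in reaction 1 (exact permutation p = 0.277, n = 7) and 0.67 in reaction 2 (exact permutation p = 0.105, n = 7). Both shares were higher in reaction 2, and with the mean of each reaction removed r was 0.61. The cDC1 share gave r of 0.51 (adjusted permutation p = 0.0934) and rho of 0.59 (0.0451), and the cDC2 share r of 0.46 (0.0934) and rho of 0.32 (0.259). Without the 2 farthest mice, cDC1 gave r of 0.42 and cDC2 r of 0.32. The rho of the cDC1 share passed in none of the 3 alternatives, at 0.55 without the 2 farthest mice (adjusted permutation p = 0.104), 0.35 at the 80% hashtag limit (0.214) and −0.036 with cells thinned to 3000 UMIs (0.975).

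Whether the cells themselves differed with treatment was tested on the counts summed over the members of each mouse. Only 9 mice had at least 5 members, 3 untreated and 6 given maraviroc, with 5 to 17 members and 67552 to 259022 UMIs each. Of 3175 genes tested, 0 passed an adjusted p of 0.05 (0%) in edgeR's quasi-likelihood test with Benjamini-Hochberg adjustment. At an unadjusted p under 0.05 there were 199 genes (6.27%), 100 higher (3.15%) and 99 lower (3.12%) with maraviroc, and DESeq2 called 4 genes. In data simulated at this size, over 2601 genes, 81 of 97 genes with a 4-fold change were recovered and 15 of 99 with a 2-fold change, and no smaller change was simulated. Log2 fold changes below are maraviroc against untreated, and standard errors (SE) are derived from the test's F statistic. EBF1 and HIP1 differed by more than 4-fold in the real data, with log2 fold changes of −3.22 and −2.86, and edgeR's test called neither. The recovered counts thus describe the simulated data, and whether as many such changes would be found in these members was not tested.

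The gene with the lowest p was EBF1, the B lineage transcription factor. Its levels were 207, 186 and 667 CPM in untreated mice and 0 to 69.2 with a median of 46.3 in maraviroc mice. Every maraviroc mouse was thus below every untreated mouse, as in 31 (0.976%) of all 3175 genes tested. The log2 fold change was −3.22 (SE 0.51), with an adjusted p of 0.0602 in edgeR's quasi-likelihood test. The 207 was 14 UMIs, all in 1 of 8 members. The 667 came from 5 members, of which 3 held all 51 UMIs and 1 held 27, and without that mouse, reaction 2 untreated mouse 2, the log2 fold change was −2.63 with an adjusted p of 0.484. Without reaction 2 untreated mouse 1 it was −3.91 with an adjusted p of 0.00451, and DESeq2 gave −3.44 with an adjusted p of 1.82e-05. In the mouse at 667, 1 member also held 8 UMIs of the B cell gene MS4A1, and 1 held 13 of PAX5, whereas CD79A was at 0 in the members of all 9 mice. In the B cell gate EBF1 stood at 704 and 1009 CPM, and the part of such cells in this difference was not tested.

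HIP1, an endocytic adaptor, came next by p and stood at 178, 157 and 733 CPM in untreated mice and 30.2 to 66.4 in maraviroc mice, with a log2 fold change of −2.86 (SE 0.48, adjusted p 0.0627 in edgeR's test). Of its 56 UMIs in the mouse at 733, reaction 2 untreated mouse 2, 51 were in 1 cell, and without that mouse the log2 fold change was −1.75 with an adjusted p of 0.484. Without reaction 2 untreated mouse 1 it was −3.28 with an adjusted p of 0.0112, and DESeq2 gave −2.86 with an adjusted p of 0.00112. CEP68, a centrosomal protein, stood at 14.8, 29.8 and 26.2 against 66.4 to 178, a log2 fold change of 2.30 (SE 0.43, adjusted p 0.118 in edgeR's test). Between 6 and 12 members in each maraviroc mouse of reaction 2 held CEP68 UMIs, but 15 of 26 in 1 of these mice and 10 of 11 in reaction 1 maraviroc mouse 1 were in 1 cell. TPST1, which sulfates tyrosines of chemokine receptors among other proteins, stood at 44.4, 44.7 and 13.1 against 122 to 443, and 41 of the 43 UMIs in the mouse at 443 were in 1 cell.

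IRF8, the transcription factor that cDC1 depend on, was the listed gene with the lowest p. It stood at 29.6, 52.2 and 105 CPM in untreated mice and at 144 to 335 with a median of 270 in maraviroc mice. Every maraviroc mouse was thus above every untreated mouse, as in 42 (1.32%) of all 3175 genes tested. For IRF8 the log2 fold change was 2.0 (SE 0.46), with an unadjusted p of 0.000736 and an adjusted p of 0.274 in edgeR's test. IRF8 was carried by 7 to 12 members in each maraviroc mouse of reaction 2, while 29 of its 32 UMIs in reaction 1 maraviroc mouse 1 were in 1 cell. All 6 cDC1 markers tested had a log2 fold change above 0, with a median of 0.97, and 1 of them, IRF8, had an unadjusted p under 0.05. Summed over the list, which includes IRF8, cDC1 markers stood at 311, 604 and 393 CPM in untreated mice and 671 to 2017 in maraviroc mice. These sums did not overlap, but of the 6 genes tested IRF8 alone had every maraviroc mouse above every untreated mouse. The other 5 overlapped. IRF8 stood at 687 and 837 CPM in the cDC1 gate and at 903 and 1039 in the pDC gate, and the 3 pDC markers tested were above 0 too, with a median of 0.79 and none at an unadjusted p under 0.05. Summed over their list of 8, pDC markers stood at 266, 59.6 and 105 CPM in untreated mice and 130 to 544 in maraviroc mice, which overlapped, and LILRA4, which defines pDC, was at 2.37 and 0.865 CPM in the members of the 2 reactions. The part of pDC signal in the IRF8 difference was not tested. The cDC1 median was 0.35 without reaction 1 untreated mouse 3 and 2.46 without reaction 2 untreated mouse 1, with all 6 genes above 0 in both. All 4 cDC2 markers tested were below 0, with a median of −2.40, and 2 had an unadjusted p under 0.05, CD1C and CD2, the latter also a T cell gene, but without reaction 2 untreated mouse 2 that median was 0.23 over 3 genes. Of all genes tested, 48.7% were above 0, with a median of −0.01.

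Class I and class II genes lay mostly on opposite sides of 0. All 11 class I genes tested had a log2 fold change above 0, with a median of 0.50, and 2 had an unadjusted p under 0.05, among them HLA-B (0.66). HLA-B, which presents peptides to CD8+ T cells, stood at 1821, 1543 and 1335 CPM in untreated mice and at 2076 to 3331 in maraviroc mice, without overlap (SE 0.23, unadjusted p 0.0130, adjusted 0.666 in edgeR's test). HLA-C and HLA-E were also above in all 6 maraviroc mice. Of all 3175 genes, 42 (1.32%) had every maraviroc mouse above every untreated mouse and 31 (0.976%) every one below. Of 12 class II genes, 11 were below 0, with a median of −0.33, and 1, HLA-DMA (−0.89), had an unadjusted p under 0.05. Without reaction 2 untreated mouse 2, which had the highest HLA-DRA at 7539 CPM, 7 of 12 class II genes were above 0 and the median was 0.03, whereas the median of class I was 0.43 with 11 of 12 above 0. Over the mice left out in turn, the class I median ran from 0.30 without reaction 2 maraviroc mouse 3 to 0.70 without reaction 2 untreated mouse 1. With mice of at least 2 members included, chosen after the data were seen, 7 of 10 class I genes were above 0 with a median of 0.17.

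**Figure D4:**
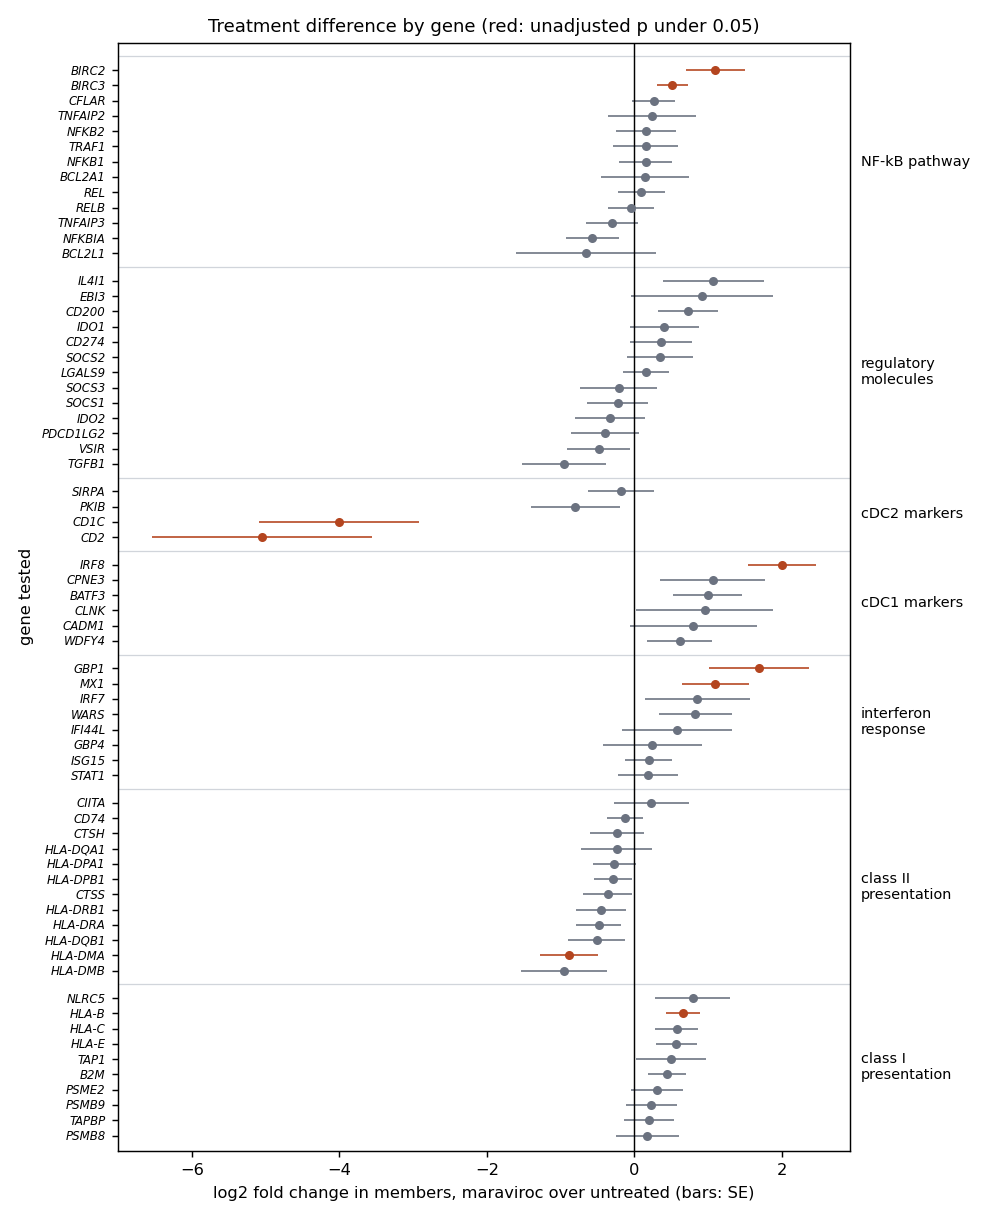
Log2 fold change of tested genes from 7 lists, 1 gene left out, maraviroc against untreated, in LAMP3+ dendritic cells, with SE as bars and genes with an unadjusted p under 0.05 in red. All class I genes shown lie above 0 (median 0.50 over the 11 tested) and all class II genes but CIITA below (median −0.33), against a median of −0.01 over all 3175 genes.

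Interferon response genes lay above 0 but were sensitive to the mice included. All 8 interferon genes tested were above 0, with a median of 0.70, and GBP1 (1.69) and MX1 (1.09) had an unadjusted p under 0.05. Without reaction 2 untreated mouse 2 the count was 6 of 9 and the median 0.38, and with mice of at least 2 members included it was 2 of 7 and −0.16. GBP1, a guanylate-binding protein induced by interferon, stood at 29.6, 89.4 and 13.1 CPM against 41.2 to 330 in maraviroc mice, which overlapped. IRF1, which acts downstream of interferon, stood at 88.8, 417 and 183 against 362 to 623 (log2 fold change 1.08, adjusted p 0.666 in edgeR's test). Of 13 NF-kB genes tested, 9 were above 0 and 2 had an unadjusted p under 0.05, BIRC3 (0.51) and BIRC2 (1.10). BIRC3 stood at 1273, 2206 and 1728 CPM against 1627 to 3235.

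Regulatory, costimulatory and chemokine genes lay on both sides of 0. Of 13 regulatory genes tested, 7 were above and 6 below 0, and 0 had an unadjusted p under 0.05. CD274 had a log2 fold change of 0.36 (SE 0.42), PDCD1LG2 of −0.39 (SE 0.46), IDO1 of 0.41 (SE 0.47) and CD200 of 0.73 (SE 0.41). Of 6 costimulatory genes, 3 were above and 3 below, with CD80 at −0.27 (SE 0.37), CD86 at 0.15 (SE 0.40) and CD83 at 0.50 (SE 0.29). Of the 6, 1 had an unadjusted p under 0.05, CD58, the ligand of CD2, at −1.31 (SE 0.57, adjusted p 0.742 in edgeR's test). CD58 stood at 104, 119 and 707 CPM in untreated mice and 73.4 to 257 in maraviroc mice, which overlapped. Among chemokines, CCL17 was at −0.46 (SE 0.65) and CXCL9 at 0.74 (SE 0.70). WNT5B, the gene furthest above the conventional gates, stood at 592, 1051 and 942 CPM against 509 to 2222 (0.81, SE 0.34), and GPC5 at 44.4, 1044 and 1112 against 0 to 687 (−1.14, SE 0.39), with adjusted p of 0.709 and 0.666 in edgeR's test.

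**Figure D5:**
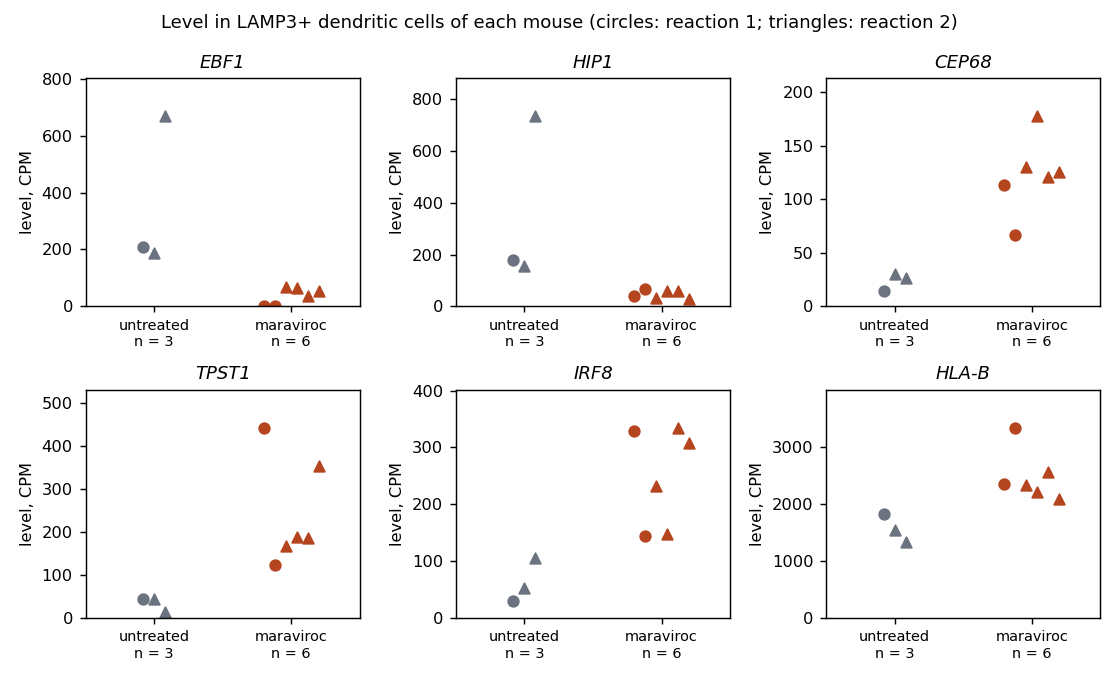
Level (CPM) of EBF1, HIP1, CEP68, TPST1, IRF8 and HLA-B in the members of each of the 9 mice with at least 5 members, by treatment, with circles for reaction 1 and triangles for reaction 2. The treatments do not overlap in these 6 genes, and 1 untreated mouse of reaction 2 carries the highest EBF1 (667) and HIP1 (733). Of all 3175 genes tested, 42 (1.32%) had every maraviroc mouse above every untreated mouse and 31 (0.976%) every one below.

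Signal of marker genes of other lineages also varied over the 9 mice, and the cells it came from were not determined. The monocyte list summed to 3449 CPM in the untreated mouse of reaction 1, with S100A9 at 2043, against 75 and 92 in the untreated mice of reaction 2 and 61.7 to 996 in maraviroc mice. GNLY stood at 1749 CPM in 1 maraviroc mouse of reaction 1, where all others lay at or under 347. Reaction 2 untreated mouse 2, which had the highest EBF1 and HIP1, also had the highest sums of macrophage (654 CPM), T cell (340) and B cell markers (510), against 116 to 494, 74.4 to 118 and 3.86 to 44.3 in maraviroc mice. In that mouse the macrophage sum held MRC1 at 484 CPM. Its T cell sum held CD4 at 144 and CD2, also a listed cDC2 gene, at 105, with CD3E and CD8A at 0. CD4 was spread over 18 of 43 and 40 of 75 members of the 2 reactions. Of the genes of the monocyte, macrophage and T cell lists tested, S100A8, MRC1, CD2 and CD4 were lower with maraviroc at an unadjusted p under 0.05, with log2 fold changes of −1.98 for the monocyte gene S100A8, −2.66 for the macrophage gene MRC1 and −0.88 for CD4. The 5 monocyte markers tested had a median of −1.48, with 4 below 0. CD2 stood at 104, 0 and 105 CPM in untreated mice and at 0 in all maraviroc mice but 1 of reaction 1, at 11.1. The part of such signal in the treatment comparison was not tested.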

How the data were processed

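The deposited files hold UMI counts per gene and cell barcode for 2 reactions, together with counts of 7 hashtag antibodies each, per the labels assigned by Cell Ranger 9.0.1 to GRCh38. The submitters' notes also name Seurat 5.1.0. Only the names of the hashtags, listed among the deposited features, tell which mice were treated, and mouse numbers only name mice in the order of those hashtags. Members, gates and the 28 gene lists (280 genes) were chosen with earlier results of these data known. No doublet caller was run on expression. The 60% hashtag limit acts on pairs of cells from different mice but not from the same mouse.

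Shares per mouse were compared by a two-sided exact permutation test within reactions, and relations by permutation over 100000 resamples, adjusted over 3 by Benjamini-Hochberg. Counts were summed over the members of a mouse and tested with edgeR 4.0.16 (quasi-likelihood, TMM, low counts filtered) with the reaction as a covariate. The limit of 10 members per mouse left fewer than 3 untreated mice, so it was lowered to 5. The step was tested on simulated data over 2601 genes, where it made 4 false calls. SE is the absolute log2 fold change over the square root of F. Mice are separate animals, but the number of graft donors is not given in the sources used here, so p-values measure the spread between these mice. Levels compare whole populations within a reaction, and no depth correction was made between reactions beyond CPM.

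Genes named are those of the lists, the 20 furthest above both conventional gates among genes at 50 CPM or more (pseudocount 1 CPM), and the 10 with the lowest p for treatment. Y-linked, XIST, receptor variable, mitochondrial and ribosomal protein genes were left out. Alternatives were other limits on LAMP3, companions, C1Q, genes (1000), mitochondrial share (7.5%) and hashtags (40% and 80%), HTODemux (Seurat 5.3.0), thinning to 3000 UMIs, another denominator, DESeq2 1.42.0, other filters, and each mouse left out. A few named features are not reported here.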

Additional observations from a re-analysis of the deposited data

Results flagged for a closer look

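Within-group gaps were examined in 40 groups of 4 to 10 mice, of which 5 had 1 mouse far from the others. Chance flags about 1 group in 20. In the members of reaction 1 maraviroc mouse 1, which had 5 members, 3 sums stood apart from the other maraviroc mice, with class II genes at 33529 CPM, cDC1 markers at 2017 CPM and interferon response genes at 3077 CPM. In reaction 1 maraviroc mouse 3 the NK markers summed to 1992 CPM, mostly GNLY at 1749. Among the untreated mice of reaction 1, mouse 2 had a cDC1 gate share of 0.104%, which was 1 cell, and the others had none.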

How the results depend on the processing

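The higher share of members in maraviroc mice kept its direction and stayed under 0.05 in all 30 alternatives run, which covered limits, hashtags, thinning, the denominator and each mouse left out. Exact permutation p ranged from 0.000816 to 0.0486, and leaving out each mouse gave 0.446 to 0.619 points. With members counted over conventional dendritic cells, the difference between the reactions was −0.770 points (exact permutation p = 0.966), opposite in sign to the 0.515 over kept cells, and the cause was not tested. Thinned to 3000 UMIs, the relation to the cDC1 share fell to r of −0.0085 and that to the cDC2 share to r of 0.045 (adjusted permutation p = 0.977 for both). The relation to the T cell share then gave r of 0.64 (adjusted permutation p = 0.048). The count of genes called for treatment was 0 in edgeR's test, 4 (1 higher, 3 lower) with DESeq2, 59 (19 higher, 40 lower) of 16513 when all genes with at least 1 count were tested, and 1 with a 40% hashtag limit, which was chosen after the data were seen. Leaving out each mouse gave 0 to 5 calls, the 5 without reaction 2 untreated mouse 1. Of the 10 genes with the lowest p, none changed direction in any alternative that tested it. These genes were picked by p from largely the same counts, so their kept direction is no separate support. HTODemux, the 40% limit, no C1Q limit, reaction 2 alone, at least 2 members per mouse and the second choices on the conventional dendritic cell denominator were also chosen after the data were seen. No paired analysis was possible because the mouse numbers only name mice and no mouse is in both treatments. Among the limits, 26.6% of reaction 1 barcodes had a mouse, and untreated mice held 27 of the 102 assigned members. Of the members of reaction 1, 8 of 43 had under 3000 UMIs.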
